A study of Rattus norvegicus with 4 samples.

Results

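The genes examined here were chosen as genes for the subunits of the proteasome. They are the rat genes whose symbols start with Psma, Psmb, Psmc or Psmd, without the inducible subunits Psmb8, Psmb9 and Psmb10, and each is represented by its brightest probe among those the scanner software marked well above background, in the T3 or the saline channel, on 3 or more of the 4 arrays. Probes were matched for 35 such genes, and 34 of these were measured, among 9304 measured genes in all. They comprised 14 core particle genes, 19 regulatory particle genes (3 of them assembly chaperones with a Psmd symbol) and Psmc3ip, a cofactor of meiotic recombination that shares the start of its symbol with Psmc3 and is kept apart from both particles. Psma8, the testis form of an alpha subunit, had a probe but was not above background by this rule. No probe was matched to Psmb11, Psmb3l1, Psmb3l2, Psmb6l1 or the lid gene Psmd11, which are not analysed here. Of the 34 measured genes, the label of subunit genes holds for the 14 core genes and 16 of the regulatory genes. The exceptions are Psmc3ip and the 3 chaperones, which assemble the base and leave the finished particle.

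Expression was measured on 4 two-colour Agilent arrays in male Sprague Dawley rats aged 10 weeks, in blocks of hypothalamus between bregma -2.12 and -4.52 mm. All 8 rats drank 0.025% methimazole (MMI), an inhibitor of thyroid hormone synthesis, for 22 days. Both groups thus received the inhibitor, and no untreated rats entered the comparison. On day 21, 4 rats received triiodothyronine (T3, 25 µg per 100 g), the hormone form that binds the thyroid hormone receptors, and 4 received saline by injection, and tissue was taken 24 hours later. Each array carried T3 RNA in one dye and saline RNA in the other, and the dye of the T3 RNA was Cy5 on arrays 1 and 3 but Cy3 on arrays 2 and 4. An array was taken as 1 pair of rats. Values are log2 of T3 over saline, above 0 where the T3 rat was higher, with the SD over 4 arrays unless another n is given.

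The proteasome is the large protease that degrades proteins tagged with ubiquitin. Its core particle is a barrel of stacked rings: outer rings of alpha subunits gate the entrance, and inner rings of beta subunits hold the active sites. The regulatory particle caps the barrel, with a base, whose ATPases unfold substrates and push them in, and a lid, which removes the ubiquitin chain. In neurons and glia, as in other cells, the subunit genes are expressed constitutively. When proteasome capacity falls short, the transcription factor Nfe2l1 raises many of these genes through the antioxidant response element in their promoters. The transcription factor Nfe2l2 also binds this element.

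The promoters of the 3 catalytic genes, and of Psmb2 as a core gene whose window held both motifs searched, are printed here. Each is the 250 bases before the annotated start, from RefSeq on build GRCr8. Psmb5, with the chymotrypsin-like site, was taken from chr15:32047380-32047629 (minus strand) and Psmb6, with the caspase-like site, from chr10:55737638-55737887 (plus strand). Psmb7, with the trypsin-like site, was taken from chr3:42827471-42827720 (minus strand) and Psmb2, a structural beta subunit, from chr5:144254808-144255057 (plus strand). Capitals mark matches, on either strand, to TGACNNNGC, the core of the antioxidant response element, or to CCAAT, the box bound by NF-Y.
Psmb5: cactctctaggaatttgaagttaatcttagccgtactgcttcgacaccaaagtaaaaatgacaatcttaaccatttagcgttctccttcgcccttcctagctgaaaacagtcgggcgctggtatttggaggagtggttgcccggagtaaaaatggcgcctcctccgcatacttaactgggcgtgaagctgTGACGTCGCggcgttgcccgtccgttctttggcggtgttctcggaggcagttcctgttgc
Psmb6: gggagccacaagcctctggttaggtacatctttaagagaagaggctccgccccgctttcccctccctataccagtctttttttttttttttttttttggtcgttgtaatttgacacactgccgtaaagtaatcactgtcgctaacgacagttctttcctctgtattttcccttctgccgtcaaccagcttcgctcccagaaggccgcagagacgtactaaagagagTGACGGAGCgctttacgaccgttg
Psmb7: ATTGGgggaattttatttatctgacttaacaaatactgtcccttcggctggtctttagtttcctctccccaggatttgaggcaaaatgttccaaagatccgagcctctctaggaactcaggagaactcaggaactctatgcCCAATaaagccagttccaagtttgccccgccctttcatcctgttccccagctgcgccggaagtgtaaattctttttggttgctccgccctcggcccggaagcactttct
Psmb2: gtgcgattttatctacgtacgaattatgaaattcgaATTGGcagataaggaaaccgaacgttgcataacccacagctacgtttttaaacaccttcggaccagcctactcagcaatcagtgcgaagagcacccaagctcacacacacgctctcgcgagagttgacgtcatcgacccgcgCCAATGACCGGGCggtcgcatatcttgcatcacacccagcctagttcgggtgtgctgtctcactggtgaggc
Psmb5 and Psmb6 each held 1 match to TGACNNNGC, TGACGTCGC beginning at base -60 and TGACGGAGC at base -24. Psmb7 held CCAAT on each strand and no TGACNNNGC in the printed bases. In Psmb2 the forward CCAAT at base -72 and TGACCGGGC at base -68 share a base and form 1 run of capitals.

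Promoter windows (250 bases before to 50 after the start) were found for 30 of the 34 genes. Psma7, Psmd6, Psmd12 and Psmd14 are named only. TGACNNNGC occurred in 7 of the 30 windows (Psma3, Psmb2, Psmb5, Psmb6, Psmd1, Psmd3 and Psmd9), 23.3%, against 12.2% of all 27457 windows. By particle these were 4 of 13 core and 3 of 16 regulatory genes. CCAAT occurred in 17 of the 30 windows, 56.7%, against 37.7% of all windows, in 9 of 13 core and 7 of 16 regulatory genes and in Psmc3ip. Both motifs occurred together in Psma3, Psmb2 and Psmd9. These are matches of letters, and no binding was measured.

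The arrays gave a T3 response, and the proteasome genes were not among the genes called. Hr, a corepressor gene raised by thyroid hormone, was 1.18 ± 0.15 higher on the log2 scale (limma adjusted p = 0.013), and over all 23191 probes tested 22 were called higher and 1 lower at an adjusted p under 0.05. All 11 hypothalamus markers, Pomc, Agrp and Hcrt among them, and all 5 neuron markers were measured, so that the defining genes of the labelled tissue were present. Of the hypothalamus markers, Avp and Oxt varied most between single pairs of rats. Avp gave 1.17, -0.18, -2.63 and -0.72 on arrays 1 to 4, and Oxt 1.81, 0.13, -2.53 and -0.27. Genes of other cell types also differed between single pairs. The choroid plexus genes Ttr and Sostdc1 were 3.53 and 2.70 higher in the T3 rat of array 3. Folr1, Kcnj13 and Enpp2, also of the choroid plexus, gave only 0.30, 0.22 and 0.23 on that array. The median of 3 red blood cell genes was -3.25 on array 2 against 0.34 to 1.35 on the others. Medians of the 5 astrocyte genes were -0.24, -0.44, -0.32 and 0.085 on arrays 1 to 4, and those of the 5 oligodendrocyte genes -0.17, -0.32, -0.22 and 0.19. Those of the 5 microglia genes were 0.13, -0.23, -0.27 and -0.0065, and those of the hypothalamus markers -0.069, -0.092, -0.49 and -0.029. The proteasome genes had medians of -0.061, 0.073, 0.0063 and 0.021, and the part of cell makeup in them was not tested. In such blocks of tissue, fewer cells of a type and less RNA per cell cannot be told apart.

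No proteasome gene rose or fell past the threshold after T3. Of the 34 genes, 0 were called higher, against 0.15% of all genes, and 0 lower, against 0.0107%. At an unadjusted limma p under 0.05, 0 of 34 passed, against 9.25% of all genes. The smallest p of any of them was 0.135 (adjusted 0.761) and the largest adjusted p was 1.00, all from limma across all probes. The differences were also small. The largest mean, 0.12 on the log2 scale for Psma7, was a size that 74.6% of the 9304 genes stayed at or within. Means of the 34 genes ran from -0.050 to 0.12, whereas the 5th and 95th percentiles of all genes were -0.19 and 0.22. Their median size without sign was 0.027, against 0.067 over all genes. All genes were not matched to the proteasome genes in brightness, so whether the smaller size is particular to them was not tested. Over the 33 subunits and chaperones, limma's 95% intervals reached no lower than -0.26 and no higher than 0.30, which is 0.832-fold to 1.23-fold, so larger changes of the mean lay outside the interval of every one of them.

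The signs were evenly divided, with 17 of 34 means above 0, against 51.9% of all genes. With values on all 4 arrays for 33 of the genes, Psma7 alone was above 0 on all of them (1 of 33, against 9.72% of genes), and 0 of 33 were below 0 on all of them (against 8.03%). The count of genes above 0 varied by array. It was 10 of 34 on array 1 and 23 of 34 on array 2. On arrays 3 and 4 it was 18 of 34 and 21 of 33. Over all genes the shares above 0 were 53.1%, 48.7%, 54.0% and 48.7% on arrays 1 to 4.

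**Figure D1:**
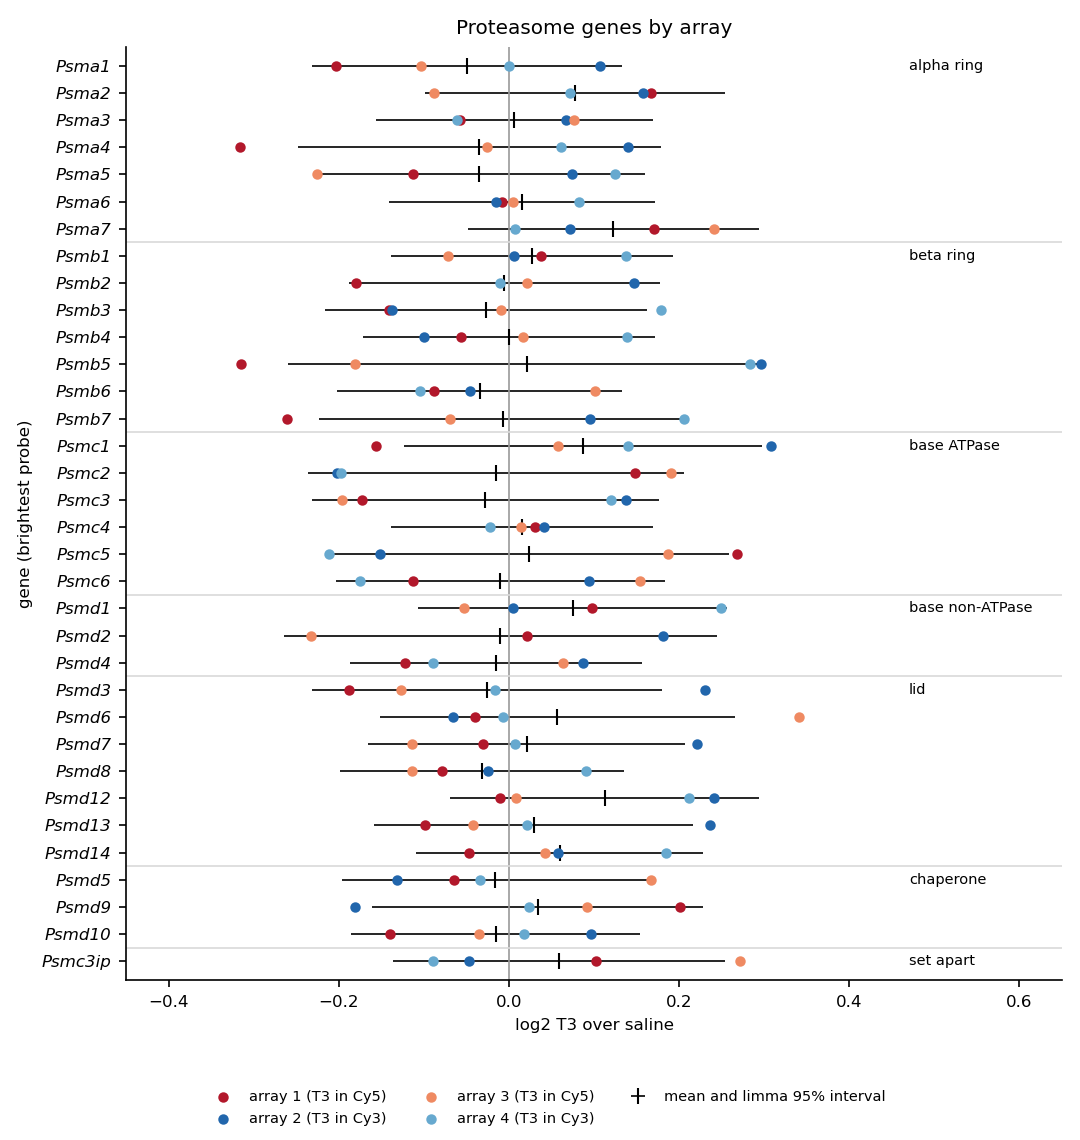
Log2 T3 over saline (x axis) of the 34 proteasome genes (y axis, by role), with a point per array, reds for T3 in Cy5 and blues for T3 in Cy3, and a bar for the mean with its limma 95% interval. Every interval spans 0, and the points of Psmb5 lie furthest apart.

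In the alpha ring, whose subunits gate the entry to the barrel, 4 of 7 means were above 0, against 51.9% of all genes. Psma7 gave 0.17, 0.072, 0.24 and 0.0073 on arrays 1 to 4. All 4 were above 0, but the value on array 4 was close to it. The mean was 0.12 ± 0.10, a 1.09-fold level, with a limma 95% interval of -0.048 to 0.29 (adjusted p = 0.761). Psma2 gave 0.17, 0.16, -0.088 and 0.072, a mean of 0.077 ± 0.12 (limma adjusted p = 0.892), with array 3 on the other side of 0. Psma1 gave -0.20, 0.11, -0.10 and 0.00063, a mean of -0.050 ± 0.13 (limma adjusted p = 0.952), the lowest mean of the set. Psma5 gave -0.11, 0.075, -0.23 and 0.12, a mean of -0.035 ± 0.16 (limma adjusted p = 0.972). In both Psma1 and Psma5 the arrays with T3 in Cy5 were low and those with T3 in Cy3 were above 0. Psma4 had a mean of -0.035 ± 0.20, Psma3 of 0.0061 ± 0.076 and Psma6 of 0.016 ± 0.045, the smallest SD of the ring. Psma2 varied more in level than in ratio, since both channels of array 2 were lower (11.75 and 11.59 on the normalized log2 intensity scale) than those of the other arrays (12.48 to 13.05).

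The catalytic beta subunits cut the substrate inside the barrel and are the targets of proteasome inhibitors; their means lay between -0.034 and 0.021. Psmb5 gave -0.31, 0.30, -0.18 and 0.28 on arrays 1 to 4, the widest range of the set (0.61). The values with T3 in Cy5 and those with T3 in Cy3 did not overlap and had opposite signs, so that the mean was 0.021 ± 0.32 (limma adjusted p = 0.992, 95% interval -0.26 to 0.30). Psmb7 showed the same order, with -0.26, 0.096, -0.069 and 0.21 and a mean of -0.0073 ± 0.20 (limma adjusted p = 0.998). Psmb6 did not: its values were -0.088, -0.045, 0.10 and -0.10, a mean of -0.034 ± 0.094 (limma adjusted p = 0.968), with array 3 alone above 0. Among the structural beta subunits, Psmb1 gave 0.038, 0.0065, -0.071 and 0.14, a mean of 0.027 ± 0.086 with array 3 alone below 0 (limma adjusted p = 0.975). Psmb2 had a mean of -0.0053 ± 0.13, Psmb3 of -0.027 ± 0.15 and Psmb4 of -9.0e-05 ± 0.10. In the beta ring as a whole 2 of 7 means were above 0, those of Psmb1 and Psmb5, against 51.9% of all genes.

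The base of the regulatory particle holds the ring of 6 ATPases that unfold the substrate. Of their means, 3 of 6 were above 0, against 51.9% of all genes. Psmc1 gave -0.16, 0.31, 0.057 and 0.14, a mean of 0.087 ± 0.19 (limma adjusted p = 0.901), with array 1 below 0 and the others above. Psmc5 gave 0.27, -0.15, 0.19 and -0.21, and Psmc2 gave 0.15, -0.20, 0.19 and -0.20. Both were above 0 where T3 was in Cy5 and below 0 where it was in Cy3, and their means were 0.023 ± 0.24 and -0.015 ± 0.21. Psmc3 ran the opposite way, with -0.17, 0.14, -0.20 and 0.12 and a mean of -0.028 ± 0.18. The ATPases of 1 ring thus differed in which dye orientation gave the higher ratio. Psmc4 had the smallest spread of the set, 0.016 ± 0.028, but its other probe gave 0.13 ± 0.18. Psmc6 had a mean of -0.0100 ± 0.16 and its other probe -0.099 ± 0.19.

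Of the base subunits that are not ATPases, Psmd4 is a ubiquitin receptor and Psmd1 and Psmd2 are large scaffolds. Psmd4 gave -0.12, 0.087, 0.063 and -0.089, a mean of -0.015 ± 0.11 (limma adjusted p = 0.989), with arrays split evenly about 0. Psmd1 gave 0.098, 0.0051, -0.052 and 0.25, a mean of 0.075 ± 0.13 (limma adjusted p = 0.902). Its other probe gave nearly the same mean, 0.076 ± 0.16, from a different order of the arrays: -0.063, 0.29, 0.12 and -0.042. Psmd2 had values on 3 arrays (0.021, 0.18 and -0.23), because its spot on array 4 was marked as an outlier by the scanner software and dropped, and a mean of -0.010 ± 0.21 (n = 3). Its other probe, with 4 values, had a mean of -0.027 ± 0.30.

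The lid removes the ubiquitin chain, and 5 of its 7 measured genes had means above 0, against 51.9% of all genes. Psmd14, the deubiquitinase of the lid, gave -0.047, 0.058, 0.043 and 0.18, a mean of 0.059 ± 0.095 (limma adjusted p = 0.925), with array 1 alone below 0. Psmd12, a scaffold subunit, gave -0.011, 0.24, 0.0083 and 0.21, a mean of 0.11 ± 0.13 (limma adjusted p = 0.813, 95% interval -0.069 to 0.29). Its mean was carried by the arrays with T3 in Cy3. Psmd8 gave -0.079, -0.025, -0.11 and 0.090, a mean of -0.032 ± 0.089 (limma adjusted p = 0.969). Psmd7, the partner of Psmd14, had a mean of 0.021 ± 0.14, and its other probes gave -0.013 and 0.0024. The remaining lid means were -0.026 ± 0.18 for Psmd3 and 0.029 ± 0.15 for Psmd13. On array 1, 0 of 7 lid genes were above 0, against 53.1% of all genes, and 5 of 7 on array 2, against 48.7%.

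Psmd6, another scaffold of the lid, gave -0.039, -0.066, 0.34 and -0.0073, a mean of 0.057 ± 0.19 (limma adjusted p = 0.951). Array 3 was high and the others lay just below 0, so that the mean was -0.038 without array 3. It was also the only gene of the set not well above background on every array in both channels: on array 4 both channels read 6.88 on the normalized log2 intensity scale, against 11.50 to 11.84 on arrays 1 to 3, and the T3 channel was not well above background there. The mean without array 4 was 0.078.

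The chaperones that assemble the base and leave the finished particle had means of -0.016 ± 0.13 (Psmd5), 0.034 ± 0.16 (Psmd9) and -0.016 ± 0.099 (Psmd10). Psmc3ip gave 0.10, -0.047, 0.27 and -0.090, a mean of 0.059 ± 0.16 (limma adjusted p = 0.943).

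The core and regulatory particles did not differ beyond the spread between arrays. The median over core genes was -0.10, 0.073, -0.017 and 0.078 on arrays 1 to 4, and that over regulatory genes -0.047, 0.087, 0.015 and 0.012. Both were below 0 on array 1 and above 0 on arrays 2 and 4. Over arrays, the core medians averaged 0.0083 ± 0.085 and the regulatory medians 0.017 ± 0.055, beside 0.0056 ± 0.014 for all genes. The core minus regulatory difference was -0.053, -0.013, -0.032 and 0.065, a mean of -0.0082 ± 0.052, with the core higher on 1 of 4 arrays. With T3 in Cy5 the difference averaged -0.042 and with T3 in Cy3 0.026, the latter being above 0 through array 4 alone. No p is given for a score over chosen genes. Within an array, the SD over core genes was 0.11 to 0.16 and that over regulatory genes 0.13 to 0.16. Both were below the SD over all genes of 0.23 to 0.26, which were not matched in brightness.

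**Figure D2:**
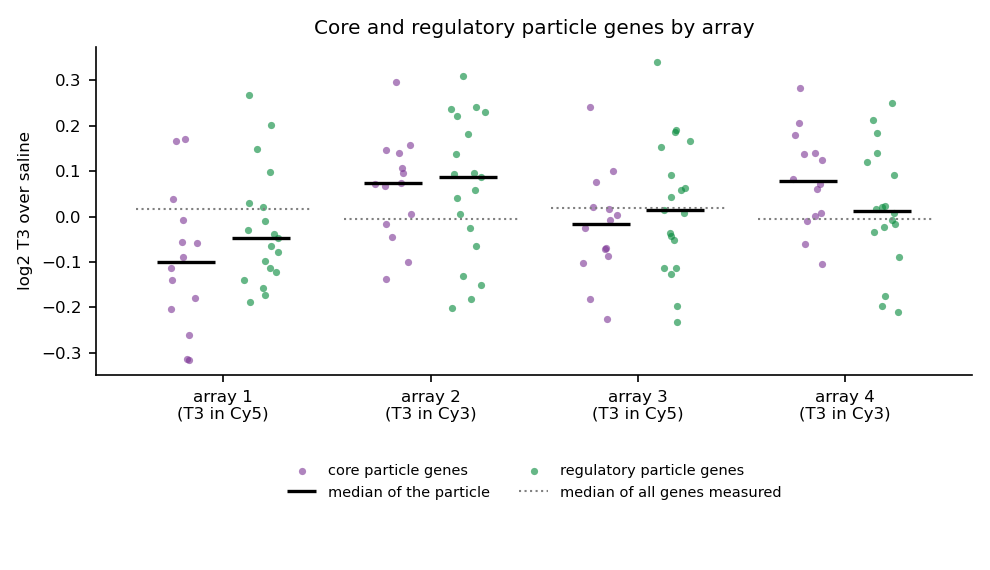
Log2 T3 over saline (y axis) of each core and regulatory gene on arrays 1 to 4 (x axis), with a bar at each particle's median and a dotted line at the median of all genes. The core and regulatory points overlap on every array, and both medians are lowest on array 1.

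More of these genes split by the dye orientation than kept 1 sign on all arrays. Of the 33 genes with 4 values, 9 were below 0 on both arrays with T3 in Cy5 and above 0 on both with T3 in Cy3 (Psma1, Psma4, Psma5, Psmb5, Psmb7, Psmc3, Psmd7, Psmd13 and Psmd10), against 10.1% of all genes. They were 5 of 14 core and 4 of 18 regulatory genes. The opposite order was found in 3 of 33 (Psmc2, Psmc5 and Psmc3ip), against 13.4% of all genes. With a dye term in limma, whose coefficient is above 0 where a gene's ratio is higher with T3 in Cy5, 23 of 34 coefficients were below 0 and their median was -0.050. Over all genes the median was 0.012, with 4269 of 9304 below 0. By particle, 11 of 14 core and 12 of 19 regulatory coefficients were below 0, with medians of -0.046 and -0.062. At an unadjusted p under 0.05 the dye coefficient passed for 4 of 34 genes, against 15.6% of all genes, and after adjustment 0 genes of the 9304 had a called dye effect. With that term in the fit, 0 of 34 genes passed an unadjusted p under 0.05 for T3, against 13.2% of all genes.

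The single channels show this for the catalytic gene with the widest spread. For Psmb5 the T3 rats read 14.24, 14.56, 14.36 and 14.69 and the saline rats 14.56, 14.26, 14.54 and 14.41 on the normalized log2 intensity scale. The treatments overlapped, while the Cy3 values (14.54 to 14.69) were all above the Cy5 values (14.24 to 14.41). Its dye coefficient was -0.27 (limma unadjusted p = 0.0041, adjusted 0.187). Psmc5 was the mirror image, with T3 rats at 16.87, 16.57, 16.83 and 16.59 and saline rats at 16.60, 16.72, 16.64 and 16.81. Here the Cy5 values were all above the Cy3 values, and the dye coefficient was 0.20 (limma unadjusted p = 0.012, adjusted 0.215). Those of Psmc2 and Psmc3 were 0.18 and -0.16, with adjusted p of 0.224 and 0.254 in the same limma fit. Since each dye orientation was used on 2 pairs of rats, dye and the differences between those pairs cannot be told apart.

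**Figure D3:**
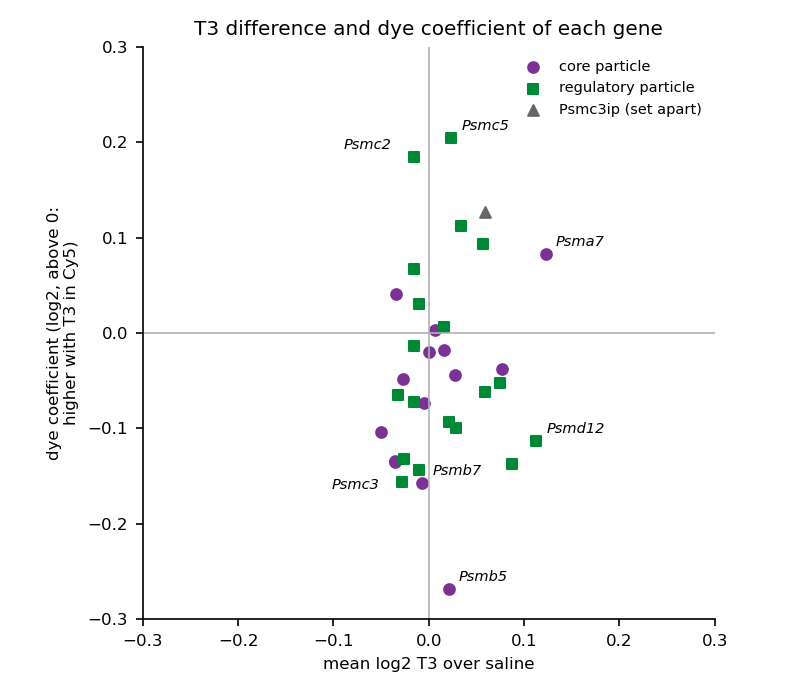
Mean log2 T3 over saline (x axis) against the limma dye coefficient on the log2 scale (y axis, above 0 where the ratio is higher with T3 in Cy5) of each core gene (circles), regulatory gene (squares) and Psmc3ip (triangle). The points spread further along the dye axis, from -0.27 for Psmb5 to 0.20 for Psmc5, than along the T3 axis, from -0.050 to 0.12.

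The genes with a TGACNNNGC match had means of 0.0061 (Psma3), -0.0053 (Psmb2), 0.021 (Psmb5), -0.034 (Psmb6), 0.075 (Psmd1), -0.026 (Psmd3) and 0.034 (Psmd9), within the range of the other genes. Of the transcription factors and enzymes that act on this element, Nfe2l2 had a mean of 0.053 ± 0.21 and Ngly1, which processes Nfe2l1, of 0.032 ± 0.11. Nfe2l1 and Ddi2 were not measured.

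The inducible subunits, which replace the catalytic ones in the immunoproteasome, included the pathway's lowest ratio. Psmb9, the interferon-responsive counterpart of Psmb6, gave -0.29, -0.51, -0.55 and -0.18, below 0 on all 4 arrays, a mean of -0.38 ± 0.18 (limma unadjusted p = 0.0027, adjusted 0.23). Psmb10, the counterpart of Psmb7, gave 0.31, -0.0074, 0.32 and 0.074 (mean 0.17 ± 0.17, limma adjusted p = 0.671), and Psmb8, that of Psmb5, had a mean of -0.00074 ± 0.28. None of these passed the threshold. Within pairs of rats, Psmb9 minus Psmb6 was -0.20, -0.47, -0.66 and -0.072, a mean of -0.35 ± 0.26. That was below 0 on 4 of 4 arrays. In an exact 2-sided sign-flip permutation test 2 of 16 sign patterns lay as far from 0, which gives the smallest p that 4 arrays allow and cannot pass the threshold (exact p = 0.375 adjusted over 3 pairs). Psmb8 minus Psmb5 averaged -0.022 ± 0.28 (exact p = 0.875) and Psmb10 minus Psmb7 0.18 ± 0.35 (exact p = 0.5), adjusted to 0.875 and 0.75.

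In the other lists of the pathway 0 genes were called, against 0.15% of all genes called higher and 0.0107% lower. Counts of means above 0 in these lists stand beside 51.9% of all genes. Of the 5 activators and inhibitors that dock on the core, 1 mean was above 0, and the smallest p values were those of Psme4 (-0.14 ± 0.23, limma adjusted p = 0.813) and Psme2 (-0.11 ± 0.23, limma adjusted p = 0.867). Of the other assembly chaperones 3 of 5 were measured, with means of 0.027 (Psmg2), -0.038 (Psmg4) and -0.012 (Pomp, which matures the beta ring). Of the other subunits and bound enzymes 3 of 5 were measured, with Adrm1, a ubiquitin receptor, at 0.096 ± 0.16 and Usp14, a deubiquitinase, at -0.088 ± 0.14. Psme4, Psme2 and Usp14 were among several genes of the other lists with means below the lowest subunit mean, that of Psma1. Psme1 (-0.063) and Psmf1 (-0.057) were others. Among 6 genes for ubiquitin and its activation, 3 means were above 0, with Uba6, an activating enzyme, at 0.096 ± 0.12. Among 9 shuttles and segregase genes 5 means were above 0. Ufd1, a cofactor of the segregase Vcp, was below 0 on all 4 arrays (-0.16, -0.19, -0.093 and -0.033) with a mean of -0.12 ± 0.068 (limma adjusted p = 0.76). Ubqln1, a shuttle, followed at 0.080 ± 0.16. In the COP9 signalosome, a relative of the lid, 2 of 8 measured means were above 0 (median -0.021), with Cops4 at -0.15 ± 0.25 on 3 arrays and Cops7a at -0.066 ± 0.11. The lists were short, and their medians ran from -0.063 for activators and inhibitors to 0.043 for the transcription factor list, beside 0.0042 over all genes.

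**Figure D4:**
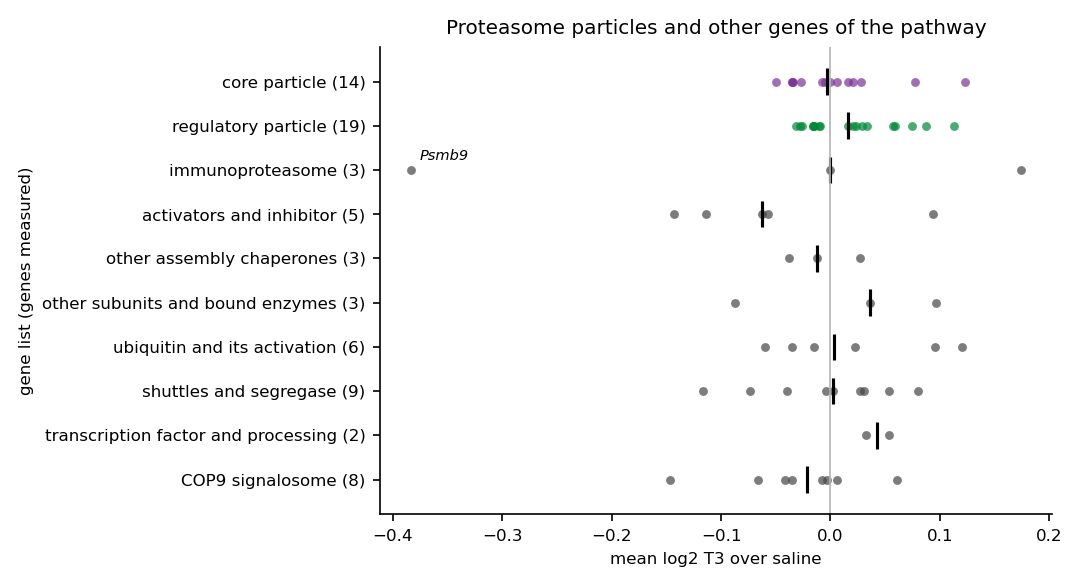
Mean log2 T3 over saline (x axis) of each measured gene in the core particle, the regulatory particle and 8 other lists of the pathway (y axis, with the number of genes measured), with a bar at each list's median. Psmb9 at -0.38 is the lowest point, and the core and regulatory genes lie between -0.050 and 0.12.

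The authors' deposited table gave other medians but the same order of the particles on arrays 1 to 3. Its core medians were -0.088, 0.10, 0.11 and -0.14 on arrays 1 to 4 and its regulatory medians 0.036, 0.11, 0.14 and -0.13, so that both particles were above 0 on arrays 2 and 3 and below 0 on array 4. Core minus regulatory in the authors' deposited table was -0.12, -0.0086, -0.029 and -0.011, with the core lower on all 4 arrays. In the authors' deposited table, Psmb5 read -0.17, 0.20, -0.015 and 0.017 and Psma7 0.049, -0.031, 0.17 and -0.13, neither of which kept 1 sign. The genes with 1 sign on all 4 arrays of the authors' deposited table were 2: Psmd12 was above 0 (0.20, 0.18, 0.30 and 0.0085) and Psma6 below it (-0.11, -0.017, -0.010 and -0.20). Its values correlated with those computed here by r = 0.43, 0.43, 0.19 and 0.28 on arrays 1 to 4 across probes, which are not independent replicates. Between arrays of opposite dye orientation, the values computed here correlated at r = -0.11 to 0.11. In the authors' deposited table these pairs ran from r = -0.51 (arrays 3 and 4) to 0.10. Pairs of 1 orientation correlated at r = 0.38 (arrays 1 and 3) and 0.18 (arrays 2 and 4) here, against 0.31 for both in the authors' deposited table.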

How the data were processed

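Per the file headers, the deposited scanner files came from Agilent Feature Extraction 10.7.3.1, and all 4 arrays lay on a single slide. They held the median brightness of each spot and of its background as intensity values without normalization. A second set of deposited intensity values had been corrected for background and dye by that software. The authors' deposited value table gave log ratios, read here on the log2 scale, and the submitters' processing notes name limma 3.18.9. Its column medians were 0.0026, -0.0024, 0.0021 and 0.0030. Its log base, centring and normalization are unknown here. Its direction was read as T3 over saline, since its values correlated above 0 on every array with the ratios computed here in that direction. These correlations were weak, at r = 0.43, 0.43, 0.19 and 0.28 on arrays 1 to 4. With Cy5 over Cy3 they were r = -0.43 on array 2 and -0.28 on array 4.

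The median signals were corrected by normexp with an offset of 50 and then by loess within arrays, with weight 0 for control spots (limma 3.58.1, R 4.3.3). Control and outlier spots were left out, spots of a probe were averaged, and arrays with T3 in Cy3 were turned. The filter on dim probes, 3 arrays or more in either treatment's channel, left 23191 of 41012 probes. From 51.0% to 68.3% of spots in a channel passed as above background, and precision is limited by the number of arrays. Single channels were taken after loess and Aquantile.

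The test was limma's lmFit and eBayes (2-sided, 3 residual and 4.35 prior degrees of freedom), with Benjamini-Hochberg adjustment over all probes that passed the filter and a threshold of 0.05. It was tested on simulated data. The labels give 8 rats, 4 per treatment, but do not say which rats shared an array, so p-values measure the spread between the 4 arrays. Names came from accessions matched to the RefSeq gene table of GRCr8, in which 16964 probes had 1 symbol and 24048 had none, and promoters are of the same build. The array design's rn4 coordinates were not used here.

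The genes and lists were chosen with earlier results of these data known. Every measured member is named. Values on all arrays are given for the 6 core and 6 regulatory genes with the smallest p and for Psmb5, Psmb6, Psmb7, Psmd4 and Psmd14. Others with values on all arrays were chosen after their values were seen. Of other lists, genes past the threshold, otherwise the 2 with the smallest p, are named. A further gene that this would name is not reported here. The alternatives tried were median centring, no background subtraction, processed signals, the authors' table, other filters, a dye term, eBayes with trend, leaving out an array, the mean over a gene's probes, the particle without chaperones, and means in place of medians.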

Additional observations from a re-analysis of the deposited data

Results flagged for a closer look

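Psmd6 had 1 array far from the others. Its log2 T3 over saline was 0.34 on array 3 and between -0.066 and -0.0073 on the other arrays. The gap to the nearest array was 0.856 of the whole range, above Dixon's 95% critical value for 4 values. It was the only such case among 36 values tested, and chance gives about 1 in 20.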

How the results depend on the processing

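In every fit tried, 0 proteasome genes passed an adjusted p of 0.05 and 0 an unadjusted one. The means over arrays of the core, regulatory and core minus regulatory values moved by less than 1 SD of the main fit under every alternative run. Single arrays were less stable. With median centring the SD over arrays was 0.79 for the core and 0.76 for the regulatory medians, against 0.085 and 0.055 in the main fit. The difference, -0.0082, reached -0.043 in the authors' table and was 0.0068 without array 1. The count of genes with 1 sign on all arrays, 1, became 0 with median centring and 2 with processed signals, with the authors' table or with the mean over a gene's probes. With 3 arrays in place of 4 it was 3 to 7. Calls over all probes, 23, became 0 with median centring (131 probes at an unadjusted limma p under 0.05) and 0 with processed signals (1949). They became 10 with the authors' table, 67 with no filter on dim probes, 15 with a dye term and 38 with eBayes trend and robust. Leaving out 1 array gave 0 to 68 calls, 68 without array 2 and 0 without array 1, 3 or 4 (1403, 1383 and 1577 at an unadjusted limma p under 0.05). The cause was not tested for any of these changes. Signs of the means depended on the processing: of 33 genes, 14 changed sign in the authors' table, 10 with median centring, 5 with processed signals and 6 to 14 without 1 array. Psma7 was 0.12 here and 0.015 in the authors' table, and Psmd5 was -0.016 here and 0.20 there. Of the 34 genes, 33 were well above background in both channels of all arrays.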
